A study of Homo sapiens with 10 samples.

Results

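Retinoic acid is made from vitamin A and acts in the nucleus, and the genes described here carry it from synthesis to breakdown. They are the retinal dehydrogenases ALDH1A1, ALDH1A2 and ALDH1A3, the related aldehyde dehydrogenase ALDH3A1, the breakdown enzymes CYP26A1 and CYP26B1, the carrier CRABP2 and the receptors RARB and RARG. They were taken by name as 9 of the 58735 genes in a table of read counts from A253 cells. A253 is an established cell line from a human squamous carcinoma of a salivary gland. The control cells carried a guide RNA against dTomato, a fluorescent protein that is not a human gene. Cl1 and Cl10 are clones, each grown from a single cell, that were heterozygous for a CRISPR-Cas9 deletion of exon 2 of DUSP1, a phosphatase that switches off MAP kinases. On western blots the study saw no DUSP1 protein in either clone. All groups carried the guide vector with its puromycin selection and a Cas9 vector with blasticidin selection, and all were grown in DMEM with fetal bovine serum. Each group had 2 libraries, and nothing in the labels says that they came from separate cultures, so p-values measure only the spread between these libraries. Each comparison with the control rests on a single clone, so the deletion and other differences between clones cannot be told apart.

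Retinol enters the cell and is stored as esters or oxidised to retinal by retinol dehydrogenases. The ALDH1A enzymes then oxidise retinal to retinoic acid, which CRABP2 brings to receptors of the RAR family, bound to DNA together with an RXR partner. CYP26 enzymes hydroxylate retinoic acid and so end the signal. In squamous epithelia retinoic acid is known to restrain keratinization, and CYP26A1 and RARB are classic genes that it induces through response elements of the DR5 type near their starts.

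The libraries held between 47016495 and 70986593 counts. Libraries of the same group differed by more than counting noise, with an unadjusted p under 0.05 for 23.6% to 58.5% of the genes with at least 100 counts (chi-square test). DUSP1 was at 12.9 and 11.04 CPM (counts scaled to library size) in the control, 5.28 and 6.15 in Cl1 and 8.60 and 7.21 in Cl10, so the clone libraries all lay below the control libraries. All 5 squamous keratinocyte markers and all 5 epithelial markers were read in every group. The summed epithelial markers ran from 4091 to 4546 CPM in the control, from 4787 to 5264 in Cl1 and from 2802 to 2860 in Cl10. The epithelial markers did not move together in Cl10 by edgeR's quasi-likelihood test. The keratins were lower on the log2 scale, KRT8 at -1.33 (adjusted p = 0.000161), KRT18 at -0.85 (adjusted p = 0.00185) and KRT19 at -0.36 (adjusted p = 0.0213). The adhesion gene CDH1 was higher at 0.35 (adjusted p = 0.0263) and EPCAM was at -0.10 (adjusted p = 0.36). KRT18, CDH1 and EPCAM were named after their values were seen. The 50 genes nearest to KRT8 and to KRT18 on chromosome 12 had a median of -0.52 in Cl10. The 5 markers of salivary acinar cells summed to at most 0.897 CPM in any library and those of leukocytes to at most 0.649 CPM, and no marker of either list reached more than 100 counts. Fibroblast markers summed to between 18.1 and 31.7 CPM and endothelial markers to between 2.77 and 8.18 CPM. The only fibroblast marker above 100 counts in a library was COL1A1, and the others reached at most 7 counts. The only endothelial marker above 100 counts was VWF, and the others reached at most 41 counts. In bulk RNA, fewer cells of a type and less RNA per cell cannot be told apart.

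The sequences shown are the 250 bases before a RefSeq start of CYP26A1 and before a RefSeq start of RARB, because they were the only starts of the 66 examined retinoid, aldehyde dehydrogenase and related genes with a DR5 match. They come from RefSeq on GRCh38.p14 and lie at chr10:93073643-93073892 (+) and chr3:25428013-25428262 (+). In GENCODE both genes begin further upstream, at chr10:93073475 and chr3:24687887, so both sequences lie inside the genes as annotated there. Capitals mark the DR5 match.
CYP26A1: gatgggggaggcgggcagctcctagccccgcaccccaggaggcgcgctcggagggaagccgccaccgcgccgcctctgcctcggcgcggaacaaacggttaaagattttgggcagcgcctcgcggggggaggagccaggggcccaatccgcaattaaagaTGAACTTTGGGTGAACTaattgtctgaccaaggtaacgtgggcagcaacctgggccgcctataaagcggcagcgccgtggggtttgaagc
RARB: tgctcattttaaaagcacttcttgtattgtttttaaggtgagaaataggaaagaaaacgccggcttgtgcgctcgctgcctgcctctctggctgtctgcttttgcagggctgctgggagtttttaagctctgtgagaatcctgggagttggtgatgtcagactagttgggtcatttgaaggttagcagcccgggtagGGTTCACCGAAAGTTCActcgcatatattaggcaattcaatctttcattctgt
The search took 2 half-sites of the form AGGTCA, where the opening base could also be G and the middle G could also be T, in the same orientation and 5 bases apart, on both strands of windows from 250 bases before to 50 bases after a RefSeq start. In CYP26A1 the match was on the opposite strand, from -90 to -74 bases from this RefSeq start (chr10:93073803-93073819). In RARB it was on the same strand, from -53 to -37 bases from its RefSeq start (chr3:25428210-25428226). Such a match stood in 31 of 35116 windows, or 0.0883%, which belonged to 29 genes. Of these genes, 17 were found in the count table by symbol and 11 were tested. In Cl1, 2 were higher and 1 lower, where 25.1% of all tested genes passed edgeR's quasi-likelihood test. In Cl10, 3 were higher and 2 lower, where 42.5% of all tested genes passed. CYP26A1 itself is among the higher genes in both clones. A match describes letters in the window and was not tested as a binding site. Windows were at hand for 8 of the 9 genes, 13 windows in all.

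CYP26A1, which breaks down retinoic acid, rose in both clones and was the member with the largest difference from the control. ENSG00000095596 lies on the plus strand at chr10:93073475-93077885 of hg38. Its expression was 0.823 and 0.878 CPM in the control libraries, 3.46 and 3.13 CPM in the Cl1 libraries and 7.82 and 6.82 CPM in the Cl10 libraries. The groups did not overlap, with the control lowest, Cl1 between and Cl10 highest. By edgeR's quasi-likelihood test it was 3.89-fold higher in Cl1, a log2 fold change of 1.96 with a standard error of 0.218 (adjusted p = 5.46e-05). In Cl10 it was 8.64-fold higher, a log2 fold change of 3.11 with a standard error of 0.166 (adjusted p = 5.68e-05). The direct comparison gave 1.15 for Cl10 against Cl1 (standard error 0.134, adjusted p = 1.73e-05). Among all tested genes, 251 of 20153 had a higher log2 fold change than CYP26A1 in Cl1, and 113 of 19875 had one in Cl10. These levels rested on 103 counts in the control, 387 in Cl1 and 786 in Cl10, each summed over both libraries. A gene model that overlaps CYP26A1 on the same strand was at 0 counts in every library.

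CYP26B1, the second breakdown enzyme (ENSG00000003137, minus strand, chr2:72129238-72147862), was read at 27.9 and 23.0 CPM in the control, at 19.5 and 24.4 CPM in Cl1 and at 24.9 and 24.3 CPM in Cl10. The 3 groups overlapped. Its log2 fold change was -0.21 in Cl1 (95% confidence interval -0.51 to 0.09, adjusted p = 0.289) and -0.05 in Cl10 (95% confidence interval -0.30 to 0.21, adjusted p = 0.764), neither of which passed edgeR's quasi-likelihood test.

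Per length, the makeup of the CYP26 transcripts shifted. Scaled to CPM per kilobase of the canonical transcript, CYP26A1 made up 5.97% and 7.60% of the CYP26A1 and CYP26B1 sum in the control libraries, 27.6% and 21.6% in Cl1 and 40.4% and 37.6% in Cl10. CYP26B1 remained the larger of the pair in every library. The sum itself was 6.52 and 5.46 CPM per kilobase in the control, 5.92 and 6.84 in Cl1 and 9.15 and 8.56 in Cl10, so that Cl1 overlapped the control while Cl10 lay above both. With the length of all annotated exons in place of the canonical transcript, the share of CYP26A1 was 4.59% and 5.87%, 22.4% and 17.3%, and 33.9% and 31.4% in the same order. The remaining family member, CYP26C1, did not exceed 3 counts in any library. CYP2S1, an enzyme outside this family that was also listed for retinoic acid breakdown, went the other way from CYP26A1. It was named after its values were seen, and its mean over the 6 libraries was 80.44 CPM. Its log2 fold change was -0.45 in Cl1 (adjusted p = 0.0103) and -0.76 in Cl10 (adjusted p = 0.000565), by edgeR's quasi-likelihood test. CYP2S1 was not among the genes refitted under other settings.

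**Figure D1:**
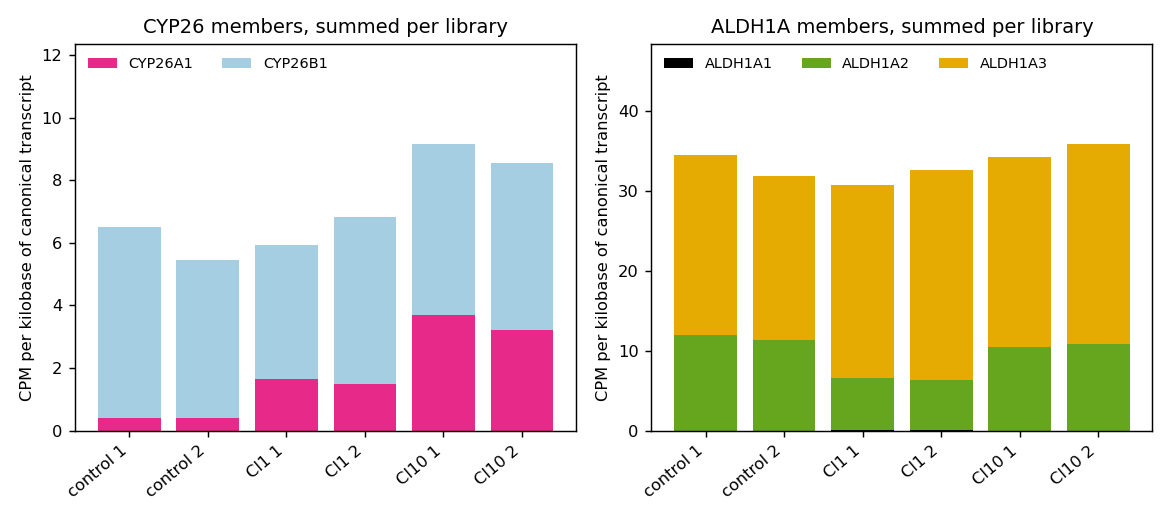
Stacked bars give CPM per kilobase of canonical transcript (vertical axis) in each of the 6 libraries (horizontal axis), for the CYP26 enzymes on the left and the ALDH1A enzymes on the right. CYP26A1 grows from 5.97% and 7.60% of its bar in the control to 40.4% and 37.6% in Cl10, while ALDH1A2 shrinks from 34.6% and 35.5% in the control to 21.2% and 19.4% in Cl1.

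Of the enzymes that make retinoic acid, ALDH1A2 fell in Cl1. ALDH1A2 (ENSG00000128918, minus strand, chr15:57953424-58497866) was at 40.4 and 38.3 CPM in the control, at 22.1 and 21.5 CPM in Cl1 and at 35.5 and 36.7 CPM in Cl10. Both Cl1 libraries lay far below the others, and the Cl10 libraries lay just under the control libraries. The log2 fold change in Cl1 was -0.85 with a standard error of 0.108 (adjusted p = 0.000145), and in Cl10 it was -0.12 (95% confidence interval -0.31 to 0.07, adjusted p = 0.261), which did not pass edgeR's quasi-likelihood test. Cl10 against Cl1 gave 0.73 (standard error 0.0674, adjusted p = 2.44e-06).

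ALDH1A3 (ENSG00000184254, plus strand, chr15:100877714-100916626), the ALDH1A gene with the highest level per kilobase, was at 78.1 and 71.3 CPM in the control, at 84.0 and 91.1 CPM in Cl1 and at 82.2 and 86.8 CPM in Cl10. The 4 clone libraries lay above both control libraries and overlapped each other. The log2 fold change of 0.23 in Cl1 (95% confidence interval -0.02 to 0.47, adjusted p = 0.159) and of 0.18 in Cl10 (95% confidence interval -0.02 to 0.39, adjusted p = 0.133) did not pass edgeR's quasi-likelihood test. Without control replicate 1 the log2 fold changes were 0.29 and 0.24, in a fit that takes the spread of the lone control library from the other groups. An antisense gene on the opposite strand, ALDH1A3-AS1, held at most 273 counts in a library, and the strand setting of the counting is not given in the sources used here, so reads of the 2 genes may not be fully separated.

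ALDH1A1 (ENSG00000165092, minus strand, chr9:72900671-73080442), a marker often used for stem-like tumour cells, was close to absent. It was read 1 and 0 times in the control libraries, 3 and 6 times in Cl1 and 1 time in each Cl10 library. A floor of 3 counts corresponded to between 0.0441 and 0.0624 CPM in these libraries, so only Cl1 replicate 2 stood above it. It did not pass the filter on low counts and was not tested. Without that filter its adjusted p lay between 0.283 and 0.824 in the 3 comparisons, and a difference was not detectable at this depth.

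Among the ALDH1A enzymes, ALDH1A2 made up 34.6% and 35.5% of the sum per kilobase in the control, 21.2% and 19.4% in Cl1 and 30.7% and 30.2% in Cl10. ALDH1A3 made up the rest in each library apart from the at most 0.178% of ALDH1A1. The ALDH1A sum was 34.5 and 31.9 CPM per kilobase in the control, 30.7 and 32.6 in Cl1 and 34.2 and 35.9 in Cl10, and the control overlapped with each clone.

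ALDH3A1, an aldehyde dehydrogenase that clears toxic aldehydes and is abundant in the cornea, rose in Cl10. ENSG00000108602 (minus strand, chr17:19737984-19748943) was at 34.2 and 32.0 CPM in the control, at 35.1 and 40.5 CPM in Cl1 and at 51.1 and 48.6 CPM in Cl10. Both Cl10 libraries lay above the other 4. The log2 fold change was 0.60 in Cl10 (standard error 0.0814, adjusted p = 0.00147), and in Cl1 it was 0.19 (95% confidence interval -0.06 to 0.44, adjusted p = 0.249), which did not pass edgeR's quasi-likelihood test. Cl10 against Cl1 gave 0.41 (adjusted p = 0.000589), but without Cl1 replicate 1 or without Cl10 replicate 1 this difference did not pass, at 0.30 (adjusted p = 0.0755) and 0.36 (adjusted p = 0.0799).

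CRABP2, the carrier that hands retinoic acid to its receptors, rose in both clones. CRABP2 (ENSG00000143320, minus strand, chr1:156699606-156705816) was at 6.87 and 8.63 CPM in the control, at 11.3 and 13.5 CPM in Cl1 and at 13.8 and 13.7 CPM in Cl10. The 4 clone libraries lay above both control libraries. Its log2 fold change in Cl1 was 0.68 with a standard error of 0.155 (adjusted p = 0.0069), and in Cl10 it was 0.84 with a standard error of 0.13 (adjusted p = 0.00248, edgeR's quasi-likelihood test). The difference between the clones was 0.16 (95% confidence interval -0.06 to 0.38, adjusted p = 0.21). FABP5, a carrier that takes retinoic acid to another nuclear receptor, went the other way, with 23.7 and 27.7 CPM in the control, 15.1 and 13.5 CPM in Cl1 and 19.4 and 18.1 CPM in Cl10, and it was named after its values were seen. Its log2 fold change was -0.84 in Cl1 (adjusted p = 0.000492) and -0.45 in Cl10 (adjusted p = 0.013, or 0.0671 without Cl10 replicate 2).

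RARG, the main retinoic acid receptor of skin, was lower in Cl10. RARG (ENSG00000172819, minus strand, chr12:53210567-53232980) was at 77.7 and 75.5 CPM in the control, at 77.6 and 79.6 CPM in Cl1 and at 61.6 and 61.7 CPM in Cl10. Both Cl10 libraries lay below the other 4, and Cl1 overlapped the control. The log2 fold change was -0.31 in Cl10 (standard error 0.0768, adjusted p = 0.0167), and in Cl1 it was 0.04 (95% confidence interval -0.19 to 0.27, adjusted p = 0.831), by edgeR's quasi-likelihood test. Without either Cl10 library RARG did not pass (adjusted p = 0.104 without replicate 1 and 0.103 without replicate 2).

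Many, but not all, of the genes around RARG on chromosome 12 were lower in Cl10. Of the 50 nearest tested genes, all within 0.789 Mb, 39 had a log2 fold change below 0 in Cl10, 26 passed the test as lower and 8 as higher, and their median was -0.44, where 21.8% of all tested genes passed as lower. In Cl1 the median of the 50 nearest genes was -0.01, with 10 lower and 6 higher, where 12.8% of all tested genes were lower and 12.4% higher. Once the local median was subtracted, RARG in Cl10 was at 0.13 (adjusted p = 0.206). DNA copy number was not measured here, and whether it differs at this place was not tested.

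RARB (ENSG00000077092, plus strand, chr3:24687887-25597932), a receptor that retinoic acid itself induces, was hardly transcribed. It was read 5 and 4 times in the control libraries, 6 and 1 times in Cl1 and 4 and 2 times in Cl10. These counts lay at or near the floor in every group and the gene was not tested. Without the filter on low counts its adjusted p lay between 0.843 and 0.985. CYP26A1 and RARB, the pair with a DR5 match shown above, stood at different levels in Cl10, with 3.46 CPM per kilobase of canonical transcript for CYP26A1 and 0.0175 for RARB.

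**Figure D2:**
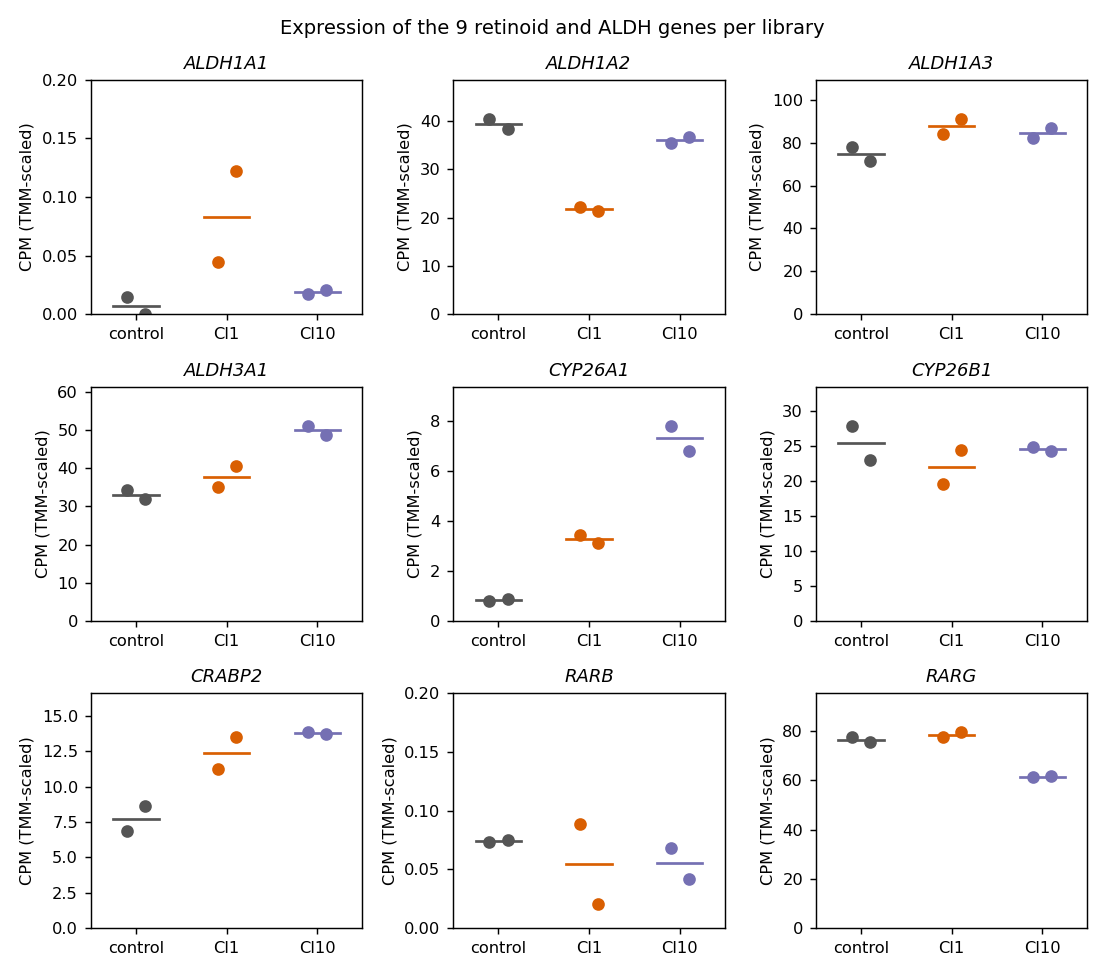
Points give the TMM-scaled CPM of each gene (vertical axis, from 0) in each library, by group (horizontal axis), and lines give the mean of the 2 libraries of a group. CYP26A1 climbs from 0.851 CPM in the control to 3.30 in Cl1 and 7.32 in Cl10, while ALDH1A1 and RARB stay near 0 in all groups.

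In all, 7 of the 9 genes passed the filter on low counts. At an adjusted p under 0.05, CYP26A1 and CRABP2 were higher and ALDH1A2 was lower in Cl1, 3 of the 7 tested, where 25.1% of all tested genes passed (12.4% higher and 12.8% lower). In Cl10, CYP26A1, CRABP2 and ALDH3A1 were higher and RARG was lower, 4 of the 7, where 42.5% of all tested genes passed (20.6% higher and 21.8% lower). Between Cl10 and Cl1 the test passed 4 of the 7, with CYP26A1, ALDH1A2 and ALDH3A1 higher and RARG lower in Cl10, where 49.0% of all tested genes passed (24.9% higher and 24.1% lower). The share of members passing was read against these backgrounds and is not a result about the members. An absolute log2 fold change above 1 as well was reached by CYP26A1 alone in each comparison, where 7.54% (Cl1), 13.4% (Cl10) and 10.8% (Cl10 against Cl1) of all tested genes reached it. Both clones were compared with the same 2 control libraries, so their fold changes are not independent.

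**Figure D3:**
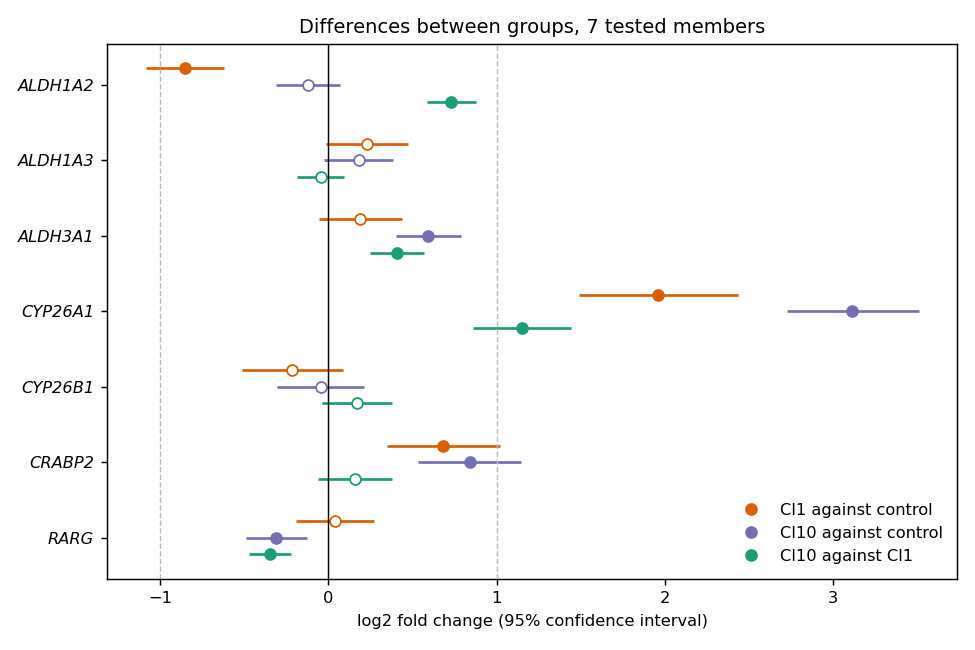
Points are log2 fold changes (horizontal axis) and bars their 95% confidence intervals for the 7 tested genes, with filled points for an adjusted p under 0.05 and dashed lines at an absolute log2 fold change of 1. CYP26A1 lies past the dashed line in all 3 comparisons, and ALDH1A2 is lower than the control in Cl1 at -0.85 but not past the test in Cl10 at -0.12.

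The order of the genes by level was compared per kilobase of canonical transcript. In the control RARG led with 26.3 ± 0.538 CPM per kilobase (SD, n = 2), followed by ALDH1A3 with 21.5 ± 1.39 (SD, n = 2) and ALDH3A1 with 20.2 ± 0.948 (SD, n = 2). ALDH1A3 and ALDH3A1 did not differ beyond their spread. ALDH1A2 at 11.6 ± 0.443, CRABP2 at 7.96 ± 1.28, CYP26B1 at 5.59 ± 0.766 and CYP26A1 at 0.402 ± 0.0183 CPM per kilobase (SD, n = 2 each) came next, above RARB and ALDH1A1. In Cl1 RARG, ALDH1A3 and ALDH3A1 still led, at 26.9, 25.2 and 23.1 CPM per kilobase, and CRABP2 at 12.7 stood above ALDH1A2 at 6.44. In Cl10 ALDH3A1 led with 30.4 ± 1.10 CPM per kilobase (SD, n = 2), above ALDH1A3 at 24.4 ± 0.935 and RARG at 21.1 ± 0.0208 (SD, n = 2 each). With the length of all annotated exons ALDH1A3 led in both clones and ALDH3A1 came after it in Cl10, so this order depends on which transcript is counted.

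The genes whose log2 CPM followed CYP26A1 most closely over the 6 libraries were CYB561A3, which has a Pearson r of 0.9993, ABHD17B with 0.9986 and CHKA with 0.9984. Of 14883 genes compared, 73 had an r above 0.99. The 6 points share groups and controls, so these values mainly describe how the 3 groups are spaced relative to each other. The differences themselves were far smaller than in CYP26A1, at 0.36 (Cl1) and 0.60 (Cl10) on the log2 scale for CYB561A3, at 0.63 and 0.96 for ABHD17B and at 0.55 and 0.94 for CHKA.

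Other genes of retinoid handling were taken as a list of 44, of which 32 were tested in Cl1 and 31 in Cl10. In Cl1, 9 were higher and 6 lower, with a median log2 fold change of 0.11, and in Cl10, 10 were higher and 8 lower, with a median of 0.07. The median over all tested genes was -0.01 in both comparisons. Of all tested genes, 12.4% were higher and 12.8% lower in Cl1, and 20.6% were higher and 21.8% lower in Cl10. Of this list RXRA, the RXR partner of the RAR receptors, had the highest CPM, not scaled to length. RXRA stood at 302 and 262 CPM in the control, at 581 and 616 CPM in Cl1 and at 477 and 461 CPM in Cl10. All 4 clone libraries lay above the control libraries, by 1.09 on the log2 scale in Cl1 (standard error 0.133, adjusted p = 0.000113) and by 0.74 in Cl10 (standard error 0.0986, adjusted p = 0.00134, or 0.47 after subtraction of the local median of 50 genes). BCO1, which cleaves beta-carotene to retinal, was at 0.956 and 0.747 CPM in the control, 2.08 and 2.67 CPM in Cl1 and 0.922 and 0.894 CPM in Cl10. It was higher in Cl1 (log2 fold change 1.46, adjusted p = 0.00122) and was not called in Cl10 (0.09, adjusted p = 0.801).

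Earlier in the pathway, several genes were named after their values were seen. RDH10, the retinol dehydrogenase that makes retinal for the ALDH1A enzymes, was at 21.9 and 20.7 CPM in the control, 32.2 and 31.4 CPM in Cl1 and 40.4 and 42.6 CPM in Cl10, in the same order of groups as CYP26A1. Its log2 fold change was 0.58 in Cl1 (adjusted p = 0.00222) and 0.96 in Cl10 (adjusted p = 0.000243). DHRS3, which turns retinal back into retinol, was lower in Cl1 at -0.53 (adjusted p = 0.00443). In Cl10 DHRS3 was at 0.16 (adjusted p = 0.2), or at 0.27 without control replicate 2. SDR16C5, another enzyme that oxidises retinol, was lower in Cl1 at -0.52 (adjusted p = 0.0134) and higher in Cl10 at 0.85 (adjusted p = 0.000798). STRA6, the membrane receptor through which retinol enters cells, was higher in Cl1 at 0.38 (adjusted p = 0.0311) and lower in Cl10 at -0.75 (adjusted p = 0.00056). In Cl1 STRA6 did not pass without Cl1 replicate 2 (adjusted p = 0.125) or with library size in place of TMM scaling (0.0841).

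By role, the receptor corepressors and coactivators moved one way where they passed. Of 6 tested, 2 were higher in Cl1 and 5 in Cl10, and none was lower, where 12.4% and 20.6% of all tested genes were higher. NCOA2, a coactivator named after its values were seen, was at 26.8 and 19.5 CPM in the control, 32.0 and 31.3 CPM in Cl1 and 45.5 and 44.8 CPM in Cl10, with log2 fold changes of 0.45 (adjusted p = 0.0331) and 0.97 (adjusted p = 0.00212). The Cl1 difference did not pass without either Cl1 library (adjusted p = 0.129 and 0.103) or with library size in place of TMM scaling (0.0769), and its size depended on the control libraries, at 0.70 without control replicate 1 and 0.25 without control replicate 2. Of 11 tested retinol and retinal oxidoreductases, 1 was higher and 2 were lower in Cl1, and 3 were higher and 1 lower in Cl10. The shares over all tested genes were 12.4% higher and 12.8% lower in Cl1, and 20.6% higher and 21.8% lower in Cl10.

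**Figure D4:**
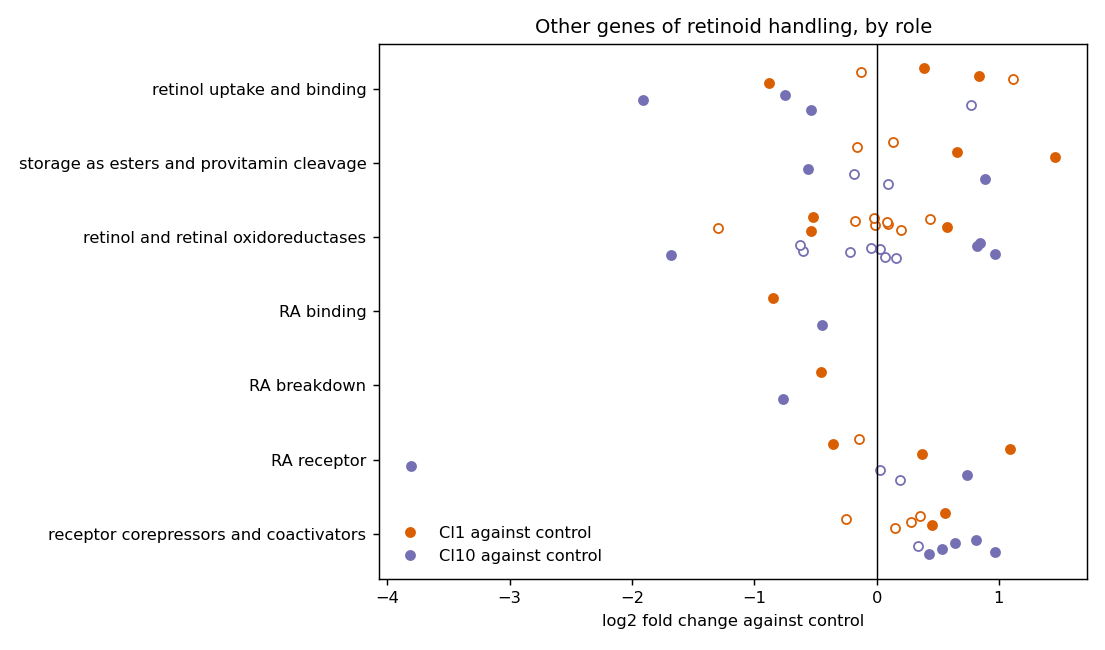
Each point is a tested gene of retinoid handling outside the 9, by log2 fold change against the control (horizontal axis) and role (vertical axis, with points spread to keep them apart), filled where the adjusted p is under 0.05. Corepressors and coactivators that pass lie to the right of 0, 2 in Cl1 and 5 in Cl10, and the point far to the left is RXRG, which had at most 21 counts in a library and whose fitted fold change is no measure of size.

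Genes known to be induced by retinoic acid moved in both directions. This list of 10 holds CYP26A1, RARB and CRABP2 and shares DHRS3 and STRA6 with the list above. In Cl1, 4 of the 9 tested were higher and 2 lower, with a median log2 fold change of 0.59, and in Cl10, 2 of the 8 tested were higher and 2 lower, with a median of 0.16. Over all tested genes, 12.4% were higher and 12.8% lower in Cl1, and 20.6% were higher and 21.8% lower in Cl10. PLAAT4, a tumour suppressor that retinoids induce and the gene of the list with the highest CPM, was at 33.4 and 41.2 CPM in the control, 74.3 and 69.3 CPM in Cl1 and 42.9 and 39.7 CPM in Cl10. It was higher in Cl1 (log2 fold change 0.95, adjusted p = 0.000178) and in Cl10 it was at 0.16 (adjusted p = 0.303), or at 0.32 without control replicate 2.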

How the data were processed

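RNA from A253 cells was sequenced as stranded, paired-end poly(A) libraries. Alignment by the authors was to hg38 with HISAT2 and counting with HTSeq. The deposited table holds raw counts per gene, not normalized. The labels also name StringTie and DESeq. Versions, annotation, strand setting and the treatment of multi-mapped reads are not given in the sources used here. The SOX2 libraries of the study were left out.

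Counts of 58735 genes in 6 libraries, 47016495 to 70986593 per library, were tested as deposited with edgeR 4.0.16 in R 4.3.3 (filterByExpr, TMM, glmQLFit, glmQLFTest) for each pair of groups, with Benjamini-Hochberg adjustment over all tested genes and a threshold of 0.05. All adjusted p-values in the text are from this test unless another is named. Standard errors come from the F statistic. CPM are TMM-scaled. Fits that leave out a library use the remaining 5 libraries together, so a lone library is assumed to vary like the other groups. Coordinates, lengths and overlaps are from GENCODE v44, which held 58207 of the identifiers and 99.9% of the counts. Promoter windows were matched by symbol.

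The members and lists were chosen with earlier results of these data known. Named from the lists were genes past the test with an absolute log2 fold change above 1 in a clone and a mean of at least 1 CPM, and the gene of each list with the highest mean CPM. A gene that this rule names is not reported here. Replicate numbers did not pair the libraries: their deviations correlated at -0.07, -0.02 and 0.01 over 20582 genes. DESeq2 1.42.0, other scalings, filters and fits were alternatives. The fit was tested on simulated counts. Floors cover counting error only.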

Additional observations from a re-analysis of the deposited data

Results flagged for a closer look

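The direct test of Cl10 against Cl1 found that the clones differed from each other in 4 of the 7 tested genes, where 49.0% of all tested genes differed (edgeR's quasi-likelihood test, adjusted p under 0.05). CYP26A1 was higher in Cl10 by a log2 fold change of 1.15, on top of its rise in Cl1. ALDH1A2 was higher in Cl10 by 0.73, having fallen in Cl1. ALDH3A1 was higher in Cl10 by 0.41, which did not pass without Cl1 replicate 1 (adjusted p = 0.0755) or without Cl10 replicate 1 (0.0799). RARG was lower in Cl10, with a log2 fold change of -0.35, at a place on chromosome 12 where the 50 nearest genes had a median of -0.27 in the same comparison, and this did not pass without Cl10 replicate 1 (adjusted p = 0.0863) or replicate 2 (0.0878). The causes of these differences were not tested. With 2 libraries in a group no test for a single outlying library was made.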

How the results depend on the processing

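CYP26A1 and CRABP2 in both clones, ALDH1A2 in Cl1 and ALDH3A1 in Cl10 kept their direction and passed the test in all 14 settings. Requiring an absolute log2 fold change above 1 as well left 1520 genes in Cl1, 2667 in Cl10 and 2131 in Cl10 against Cl1, with 1 member in each, and 9, 10 and 10 genes of the other lists. Leaving out each library in turn gave 3497 to 7923 genes, 5858 to 9939 and 4433 to 9843 in the same order, 3 to 4, 3 to 5 and 2 to 4 members, and 24 to 45, 30 to 44 and 24 to 46 genes of the other lists. The lowest counts came without a clone library. With a replicate block the members passing were 3, 4 and 4, and the block changed no member's call. Of the other named genes it ended the call of KRT19 in Cl10 (adjusted p = 0.0706). With library size in place of TMM, RARG in Cl1 was at -0.031, ALDH1A3 in Cl10 against Cl1 at 0.025 and NQO1 in Cl1 at -0.040. With a library left out, ALDH1A3 in Cl10 against Cl1 ran from -0.11 to 0.0025, CYP26B1 in Cl10 from -0.17 to 0.094, BCO1 in Cl10 from -0.058 to 0.28 and NQO1 in Cl1 from -0.063 to 0.13. Without control replicate 2, CYP26B1 in Cl1 was at -0.35. With the median of the 50 nearest genes subtracted, RARG in Cl10 was at 0.13, BCO1 in Cl10 at -0.032, PLAAT4 in Cl10 at -0.16, TIPARP in Cl1 at 0.0016 and NQO1 in Cl1 at -0.070, RARG in Cl10 against Cl1 no longer passed (adjusted p = 0.329), and CRABP2 in Cl10 against Cl1 passed at 0.31 (adjusted p = 0.0254). Of 126 member values with a library left out 115 kept their direction and side of the threshold, and of 168 under the other settings 163 did. For the other named genes these were 240 of 258 and 330 of 344. The cause was not tested. Depth leaves ALDH1A1 and RARB untested.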

Other observations

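Aldehyde dehydrogenases outside the 9 genes passed the test in both directions in each clone. Of 14 tested, 3 were higher and 2 lower in Cl1, and 2 were higher and 5 lower in Cl10, with median log2 fold changes of 0.15 and -0.16. Over all tested genes, 12.4% were higher and 12.8% lower in Cl1, and 20.6% were higher and 21.8% lower in Cl10. ALDH3B2, which acts on lipid aldehydes, was at 6.37 and 6.54 CPM in the control, at 20.6 and 21.4 CPM in Cl1 and at 3.74 and 3.85 CPM in Cl10. It was higher in Cl1 (log2 fold change 1.71, adjusted p = 2.07e-06) and lower in Cl10 (-0.76, adjusted p = 0.00303), and the clones differed by -2.47 (adjusted p = 3.86e-09). ALDH3A2, the fatty aldehyde dehydrogenase and the gene of the list with the highest CPM at a mean of 299.8 CPM, was at 0.07 in Cl1 (adjusted p = 0.73) and 0.09 in Cl10 (adjusted p = 0.414).

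ALDH3A1 is known as a target of the aryl hydrocarbon receptor, and 5 other targets of that receptor were tested. Among all tested genes, 12.4% were higher and 12.8% lower in Cl1, and 20.6% were higher and 21.8% lower in Cl10. Of the 5 targets, 1 was higher and 2 were lower in Cl1, and 1 was higher and 3 were lower in Cl10. ALDH3A1 itself rose in Cl10. The gene that was higher in both clones was AHRR, a repressor of the receptor that the receptor itself induces, named after its values were seen. AHRR was at 91.2 and 83.1 CPM in the control, 120.1 and 123 CPM in Cl1 and 143.5 and 147 CPM in Cl10, with log2 fold changes of 0.48 (adjusted p = 0.00805) and 0.74 (adjusted p = 0.000754). CYP1B1, a monooxygenase of this group, was at 161 and 127 CPM in the control, 67.2 and 95.7 CPM in Cl1 and 28.7 and 30.3 CPM in Cl10, with log2 fold changes of -0.82 (adjusted p = 0.00335) and -2.28 (adjusted p = 6.61e-05). CYP1A1 was lower at -1.17 in Cl1 (adjusted p = 0.00246) and at -0.51 in Cl10 (adjusted p = 0.0133, but 0.0682 in a fit over all 6 libraries, 0.125 without control replicate 1, and 0.156 and 0.153 without Cl10 replicates 1 and 2). TIPARP was lower in Cl10 at -1.03 (adjusted p = 0.000198), where its 50 nearest genes had a median of -0.70 (leaving -0.33 once it was subtracted, adjusted p = 0.0193). In Cl1 TIPARP was at -0.21 (adjusted p = 0.181), or at -0.24 without control replicate 2. NQO1, a quinone reductase and the gene of the group with the highest CPM, was at 0.03 in Cl1 (adjusted p = 0.891). In Cl10 NQO1 was at -0.17 (adjusted p = 0.169), or at -0.27 without control replicate 1.

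Keratinocyte genes that respond to retinoic acid were counted in 2 sets. Among all tested genes, 12.4% were higher and 12.8% lower in Cl1, and 20.6% were higher and 21.8% lower in Cl10. Of 5 tested genes of keratinization that retinoic acid is known to lower, 4 were higher and 1 lower in Cl1, and 3 were higher and 1 lower in Cl10. In this set KRT1, IVL and FLG were the genes past an absolute log2 fold change of 1 in both clones. However, FLG in Cl1 did not pass after subtraction of the local median of 50 genes, at 0.82 (adjusted p = 0.0908). Of 4 keratins that retinoic acid is known to raise, 3 were higher in Cl1, and 2 were higher and 1 lower in Cl10. KRT4, named after its values were seen, was at 2.39 in Cl1 (adjusted p = 0.00126) and 2.76 in Cl10 (adjusted p = 0.00128), by edgeR's quasi-likelihood test. Its level was low, at 0.118 and 0.224 CPM in the control and at most 69 counts in a library. KRT15, a basal keratin, was at 187 and 203 CPM in the control, at 483 and 502 CPM in Cl1 and at 355 and 335 CPM in Cl10, with log2 fold changes of 1.34 (adjusted p = 1.35e-05) and 0.83 (adjusted p = 0.000552, or 0.54 after subtraction of the local median of 50 genes). KRT19, with the highest CPM of the list, was at 0.38 in Cl1 (adjusted p = 0.0726, or 0.00854 by DESeq2) and lower in Cl10 at -0.36 (adjusted p = 0.0213, or 0.0899 and 0.196 without Cl10 replicates 1 and 2, and -0.67 after subtraction of the local median of 50 genes).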
